A study of Mus musculus with 14 samples.

Results

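The 10 genes of the amino acid response run by the transcription factor ATF4 were followed in mouse liver across Pkd1 genotypes. They are Atf4 itself, the transcription factors Atf5 and Ddit3, the feedback and glutathione genes Trib3 and Chac1, and the biosynthetic enzymes Asns, Psat1, Phgdh, Mthfd2 and Aldh18a1. The 10 symbols were matched by name to a table of 57180 genes and found 11 entries, because Ddit3 is listed under 2 gene identifiers. Of the 11 entries, 9 had enough counts to be tested, 1 for each gene except Phgdh, among 16201 genes tested in all. Each library came from a liver of mice on normal chow, with 6 labelled WT, 4 labelled Pkd1 Het and 4 labelled Pkd1 Homo. Every label also carries the word Cre and describes the animals as littermates, so the WT controls are Cre-labelled too. The labels name neither the Pkd1 allele nor what drives Cre, and give no sex, age or litter. Each library has its own numbered label and nothing states further how the animals were drawn, so p-values measure the spread between these 14 samples.

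When amino acids run short or the endoplasmic reticulum is stressed, kinases phosphorylate the initiation factor eIF2, which lowers general protein synthesis while favouring translation of the Atf4 messenger RNA. ATF4 protein then binds DNA together with partner factors and raises genes for amino acid synthesis, uptake and tRNA charging. Control of ATF4 is therefore largely translational, and the level of its messenger RNA is not a measure of the protein. In liver the program is known to respond to dietary protein and to mitochondrial or endoplasmic reticulum stress.

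The promoter stretches of 3 genes are shown because they belong to the genes on which the values below turn, or hold a match to the composite element to which ATF4 and its C/EBP partners bind. RefSeq promoter windows of 300 bases, 250 before and 50 after the start, matched all 10 genes in 12 windows (build GRCm38.p6). The motif TGATGNAA was searched on both strands and matched 3 of the 12 windows, those of Asns, Chac1 and Trib3, against 3.97% of 32851 promoter windows of the same length. The match of Trib3 lies after the start and is not printed. The 250 bases before the start are given 5′ to 3′ on the gene's own strand, with the match in capitals. The Asns stretch is chr6:7693210-7693459, minus strand. The Chac1 stretch is chr2:119350992-119351241, plus strand, and its match reads TGATGCAA on the opposite strand. The Aldh18a1 stretch is chr19:40588464-40588713, minus strand, and holds no match to these letters.
Asns: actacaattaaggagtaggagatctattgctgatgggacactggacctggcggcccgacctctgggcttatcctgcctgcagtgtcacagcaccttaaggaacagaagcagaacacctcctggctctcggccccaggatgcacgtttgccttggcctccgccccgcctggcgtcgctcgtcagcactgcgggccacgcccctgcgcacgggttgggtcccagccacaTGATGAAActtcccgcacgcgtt
Chac1: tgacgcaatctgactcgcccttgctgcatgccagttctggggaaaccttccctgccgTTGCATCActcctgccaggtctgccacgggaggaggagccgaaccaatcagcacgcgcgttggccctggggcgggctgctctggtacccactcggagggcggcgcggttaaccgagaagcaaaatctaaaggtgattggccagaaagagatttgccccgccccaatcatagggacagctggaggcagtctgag
Aldh18a1: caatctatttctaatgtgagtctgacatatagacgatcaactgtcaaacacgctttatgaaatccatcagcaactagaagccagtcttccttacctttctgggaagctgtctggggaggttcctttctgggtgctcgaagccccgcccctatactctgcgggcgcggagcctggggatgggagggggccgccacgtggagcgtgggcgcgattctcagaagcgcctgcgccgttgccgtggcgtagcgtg
In Asns the match begins 23 bases before the start, and an element of this kind in its promoter is known for the response to amino acid shortage. A match describes the letters only, and the count data do not show what binds there.

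The 14 libraries held 18573739 to 40925973 estimated counts each. Levels are given in CPM, counts relative to the total of their library after scaling by the trimmed mean of M-values (TMM). Pkd1, which checks the labels, was at 34.8 ± 2.77 CPM in WT (SD, n = 6), 32.2 ± 3.52 in Het (n = 4) and 25.3 ± 1.51 in Homo (n = 4), with all Homo livers below all others (Homo against WT: log2 −0.46, edgeR quasi-likelihood test, adjusted p = 0.0246). Het overlapped WT in Pkd1 (log2 −0.11, adjusted p = 0.998, edgeR), so its level does not check the Het label. All 6 hepatocyte markers were abundant in every group. The 6 pancreatic acinar markers, from a tissue that expresses several of these genes strongly, reached at most 3 counts in any library, and 3 of them in WT, 5 in Het and 4 in Homo were at 0 in the whole group. In bulk tissue, fewer cells of a type and less RNA per cell cannot be told apart.

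None of the 9 tested genes passed the test in any comparison. The call rule was a Benjamini-Hochberg adjusted p under 0.05 over all 16201 genes in edgeR's quasi-likelihood test. In Homo against WT, 0 of the 9 were called, against 0.222% of all genes tested. In Het against WT it was 0 of 9, against 0.0556%, and in Homo against Het 0 of 9, against 0.0309%. A trend over the number of mutant alleles, with WT, Het and Homo as steps 0, 1 and 2, called 0 of 9, against 0.185%. DESeq2 also called 0 of 9 in each of the 4.

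At an unadjusted p under 0.05, edgeR found 1 gene in Homo against WT (Aldh18a1; background 4.73%), 1 in Het against WT (Asns; 4.67%), 2 in Homo against Het (Aldh18a1 and Trib3; 5.10%) and 1 in the trend (Aldh18a1; 4.72%). DESeq2 gave the same numbers, 1, 1, 2 and 1. In Homo against WT, 8 of the 9 fitted folds were above 1, against 50.6% of all genes. Of these, the log2 fold change of Atf4 turned sign in 10 of 20 alternatives, and those of Mthfd2 and Psat1 in 4 of 20 each. Atf4 did so under DESeq2's size factors, and Psat1 and Atf4 under a replicate block. The median log2 fold change of the 9 was 0.22, beside 0.0022 over all genes. In Het against WT, 6 of 9 were above 1, against 50.0%, with a median of 0.07, and in Homo against Het 3 of 9, against 50.5%, with a median of −0.05. The 3 comparisons share libraries, so these counts are not independent of one another. As the genes were chosen with earlier results of these data known, the counts and medians are a description only.

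Groups that did not overlap were rare. In Homo against WT, 1 of 9 genes, Aldh18a1, had all Homo livers above all WT livers (0.735% of all genes did), and 0 of 9 had them all below (0.420%). In Het against WT the counts were 0 of 9 higher (0.697%) and 0 of 9 lower (0.506%). In Homo against Het they were 0 of 9 higher (1.42%) and 0 of 9 lower (1.52%).

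**Figure D1:**
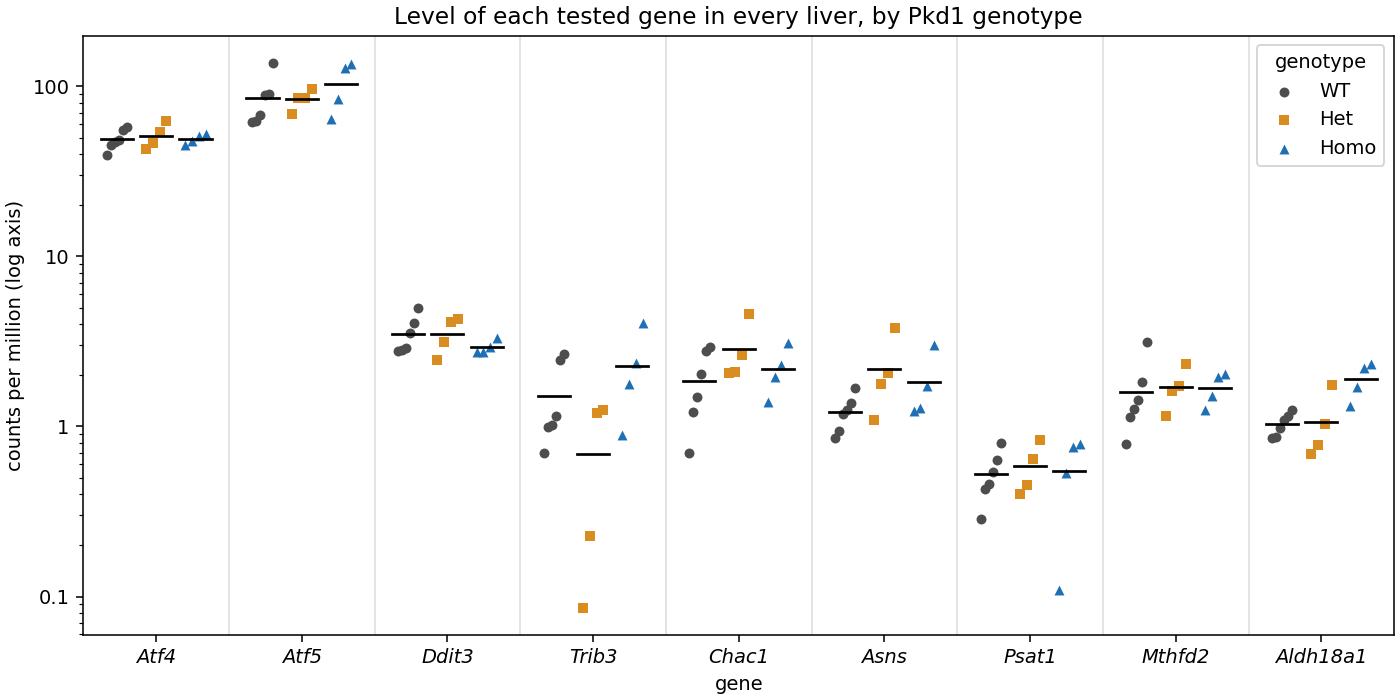
Level in CPM on a log axis for the 9 tested genes, 1 point per liver, coloured by genotype, with a black line at each group's mean. Atf4 and Atf5 lie between 39.5 and 138 CPM, the other 7 genes at or below 4.97 CPM, and only Aldh18a1 has all Homo points above all WT points.

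Among the transcription factors, Atf4 was the steadiest of the 9 genes in the ratio of its highest to its lowest liver. It ranged from 39.5 CPM in WT 2 to 62.6 CPM in Het 2, a 1.59-fold span. In WT its lowest, median and highest values were 39.5, 47.7 and 57.8 CPM. The Het livers were at 42.9, 62.6, 46.3 and 53.7 CPM and the Homo livers at 47.8, 50.8, 45.01 and 52.4 CPM. The 3 groups overlapped throughout. The fitted fold of Homo over WT was 1.00, with a 95% interval from 0.845 to 1.19, and that of Het over WT was 1.05, from 0.887 to 1.24. The interval for Homo therefore excludes a rise of Atf4 messenger RNA above 1.19-fold in this fit.

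Atf5, a related factor that is also controlled at translation, was the most abundant of the 9 by CPM. Its WT livers had a lowest, median and highest value of 61.9, 78.4 and 138 CPM. The Het livers were at 96.3, 85.8, 68.4 and 85.5 CPM, and the Homo livers at 64.4, 128, 136 and 83.9 CPM. WT 1, Homo 2 and Homo 3 stood above the other 11 livers, so high values occurred in both genotypes. The fold of Homo over WT was 1.21, with an interval from 0.857 to 1.72 (adjusted p = 0.998, edgeR). Exons of Atf5 share 82 bases with genes on the opposite strand, and whether the counting used strand is not given in the sources used here.

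Ddit3 encodes CHOP, a factor linked to cell death under lasting stress. Its main entry was at 3.51 ± 0.875 CPM in WT (SD, n = 6), 3.49 ± 0.851 in Het (n = 4) and 2.94 ± 0.267 in Homo (n = 4). The 4 Homo livers, from 2.74 to 3.31 CPM, lay inside or just under the WT range of 2.79 to 4.97 CPM. The fold of Homo over WT was 0.838, with an interval from 0.624 to 1.13. A second Ddit3 entry, wholly inside the first on the same strand, held 0 to 10 counts a library and was not tested. Its 4 zeros, in Het 3, Het 4, Homo 3 and Homo 4, allow up to 0.113 to 0.165 CPM each, a limit for counting error only. With both entries added, a choice made after seeing the data, the log2 fold change of Homo over WT was −0.30 in place of −0.26. Some Ddit3 exon sequence also overlaps the tRNA synthetase gene Mars on the opposite strand, so its level is uncertain to that extent.

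Trib3, a pseudokinase that ATF4 raises and that in turn restrains ATF4, varied most. Its WT livers had a lowest, median and highest value of 0.694, 1.09 and 2.68 CPM. The Het livers were at 1.25, 0.227, 1.19 and 0.0862 CPM, where Het 2 and Het 4 rest on 5 and 2 counts. The Homo livers were at 0.891, 4.05, 1.78 and 2.36 CPM. Het 2 and Het 4 were the lowest of the 14 livers and Homo 2 was the highest, a 46.9-fold span, and Homo 1 lay below Het 1 and Het 3, so the groups overlapped.

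The fitted fold of Trib3 in Homo over Het was 3.22, with a wide interval from 1.21 to 8.55 (log2 1.69 ± 0.66 SE, unadjusted p = 0.022, adjusted p = 0.930, edgeR). An exact two-sided permutation test of mean log2 CPM gave p = 0.0857, where 4 against 4 livers can reach 0.0286 at the smallest. Without Homo 2 the log2 fold change was 1.25, with an unadjusted p of 0.0915 in edgeR. Against WT, Het was at a log2 fold change of −1.10 and Homo at 0.59, and both intervals included 0. Trib3 thus had values on either side of WT in the mutant groups, and neither difference from WT passed the test.

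Chac1, which breaks down glutathione and is among the most inducible ATF4 targets, was at 1.86 ± 0.886 CPM in WT (SD, n = 6), 2.84 ± 1.19 in Het (n = 4) and 2.19 ± 0.716 in Homo (n = 4). Single livers ran from 0.694 CPM in WT 6 to 4.58 CPM in Het 3. The fold of Het over WT was 1.52, with an interval from 0.894 to 2.59, and that of Homo over WT was 1.17, from 0.680 to 2.01. Leaving out Het 3 lowered the log2 fold change of Het over WT from 0.61 to 0.28.

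Of the biosynthetic enzymes, Aldh18a1 had the clearest difference. It makes the precursor from which proline and ornithine are built. In WT its lowest, median and highest values were 0.858, 1.04 and 1.25 CPM. The Het livers were at 1.75, 0.773, 1.04 and 0.689 CPM and the Homo livers at 1.72, 2.21, 2.34 and 1.32 CPM. Every Homo liver was above every WT liver, while Het ranged on both sides of WT and Het 1 lay among the Homo values.

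The fitted fold of Aldh18a1 in Homo over WT was 1.84, with an interval from 1.25 to 2.69 (log2 0.88 ± 0.26 SE, unadjusted p = 0.00401, adjusted p = 0.650, edgeR). It stood at rank 100 by p among the 16201 genes. The exact two-sided permutation test of mean log2 CPM gave p = 0.00476, the smallest that 6 against 4 livers allow, in 1 of 27 such tests run (9 genes in 3 comparisons). Over Het the fold of Homo was 1.78, with an interval from 1.16 to 2.74 (adjusted p = 0.916, edgeR) and an exact permutation p of 0.0857. Het over WT was 1.03, from 0.692 to 1.54. Leaving out any 1 library kept the log2 fold change of Homo over WT between 0.76 and 1.01.

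These Aldh18a1 levels rest on 16 to 62 counts a liver. The spread among WT livers, a coefficient of variation of 15.5%, was no larger than the 17.96% that counting alone would give at that depth. In the mutant groups it was larger, at 45.5% in Het against 19.9% from counting and 24.8% in Homo against 14.4%. Of the marker lists, 3 held genes with an unadjusted p under 0.05 in Homo against WT in edgeR, and their sums follow. Not all markers were higher in Homo. Of the Kupffer markers 5 were above and 1 below WT, and of 3 tested neutrophil markers 1 was above and 2 below, with a median log2 fold change of −0.70. The summed level of 6 Kupffer cell markers was 174 to 208 CPM in WT, 175 to 206 in Het and 200 to 218 in Homo. The summed level of 6 markers of cycling cells was 11.2 to 17.1 CPM in WT, 13.5 to 18.1 in Het and 15.3 to 23.9 in Homo. For 6 lymphocyte markers, of which 2 had enough counts to be tested, the sums were 5.46 to 15.02, 16.9 to 19.5 and 17.6 to 25.2 CPM. That sum is almost all Cd3e, with means of 11.7, 16.9 and 18.5 CPM, while the other 5 markers had means under 0.7 CPM and 4 of them, Cd79a, Nkg7, Cd3d and Trac, had a lower mean in Het than in WT. None of the markers in these 3 lists passed the adjusted threshold in Homo against WT in edgeR or DESeq2. In both tools 3 of 6 Kupffer, 3 of 5 tested cycling and 1 of 2 tested lymphocyte markers had an unadjusted p under 0.05, all higher, against 4.73% of all genes. In Homo against Het, 2 of 6 Kupffer and 1 of 5 tested cycling markers had such a p in edgeR, all higher. There, 2 of 6 stellate and 1 of 6 tested bile duct markers also had one, all lower, against 5.10% of all genes. None of these was called. The part of any of these markers in the Aldh18a1 or Trib3 differences was not tested.

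Asns, asparagine synthetase, is the classic readout of amino acid shortage. Its WT livers had a lowest, median and highest value of 0.852, 1.22 and 1.69 CPM. The Het livers were at 1.09, 1.77, 3.78 and 2.07 CPM and the Homo livers at 1.29, 1.23, 1.74 and 3.02 CPM. Of the mutant livers, 3 of 4 Het and 2 of 4 Homo lay above the highest WT liver, and the rest lay within the WT range.

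The fold of Asns in Het over WT was 1.79, with an interval from 1.09 to 2.94 (log2 0.84 ± 0.33 SE, unadjusted p = 0.0237, adjusted p = 0.998, edgeR), and the exact permutation p was 0.0619. Het 3 carried much of this: without it the log2 fold change was 0.43. In Homo over WT the fold was 1.48, with an interval from 0.895 to 2.44, and without Homo 4 the log2 fold change fell from 0.56 to 0.22. Het 3 was also the liver with the highest Chac1. In Het against WT, 2 of 6 stellate cell markers had an unadjusted p under 0.05, against 4.67% of all genes. They were the collagen genes Col1a1 (log2 0.66, adjusted p = 0.0925, edgeR) and Col1a2 (log2 0.44, adjusted p = 0.0949, edgeR). Each was higher in every Het liver than in every WT liver, as were 0.697% of all genes. Of the 6 markers, 4 were above and 2 below WT in Het. The 2 below were Lrat, with means of 25.0 CPM in WT and 20.1 in Het, and Reln, with 114 and 110. The summed level of the 6 stellate markers was 232 to 309 CPM in WT, 228 to 321 in Het and 267 to 298 in Homo. Of 6 tested bile duct markers, 3 were above and 3 below WT in Het. Among them 1, Sox9, had an unadjusted p under 0.05 and was lower (log2 −0.50, adjusted p = 0.998, edgeR). The part of these markers in the Asns difference was not tested.

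**Figure D2:**
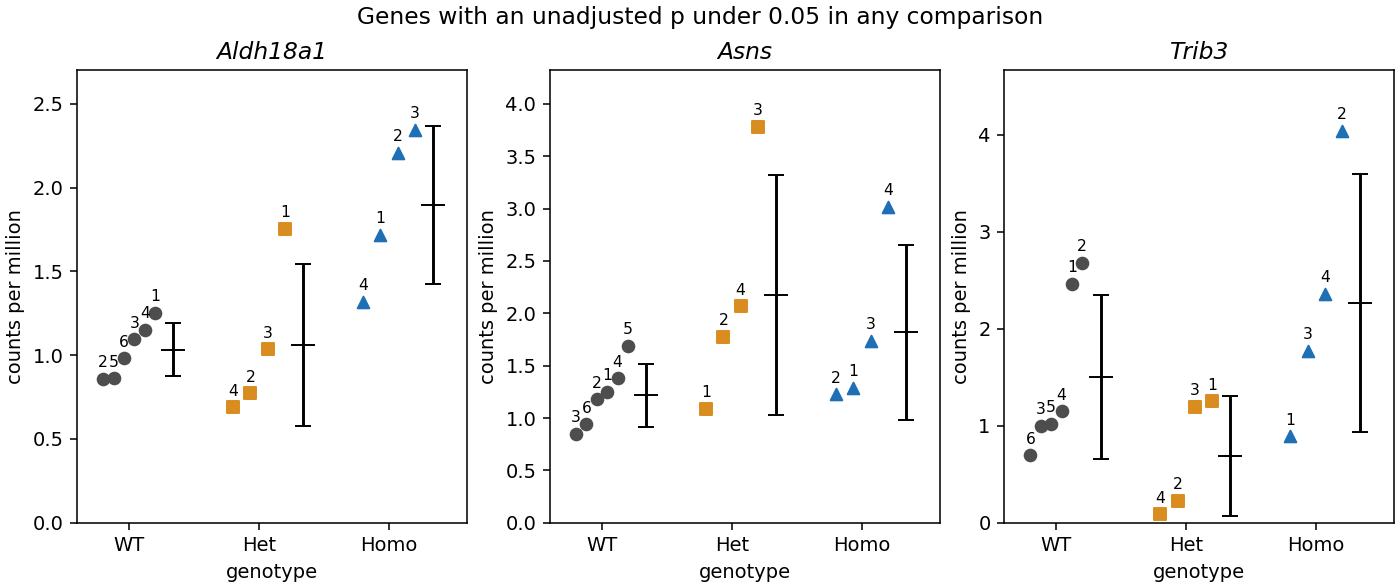
Level in CPM of Aldh18a1, Asns and Trib3 in each liver, with the replicate number above each point and the group mean ± SD beside it, on axes that start at 0. Aldh18a1 in Homo lies above WT in every liver, the Asns means of Het and Homo are raised by Het 3 and Homo 4, and Trib3 has its lowest values in Het 2 and Het 4.

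The serine and folate enzymes showed no difference that could be told from their spread. Mthfd2, a mitochondrial folate enzyme, was at 1.60 ± 0.825 CPM in WT (SD, n = 6), 1.71 ± 0.479 in Het (n = 4) and 1.69 ± 0.371 in Homo (n = 4). Its highest liver, at 3.13 CPM, and its lowest, at 0.787 CPM, were both WT. The fold of Homo over WT was 1.05, with an interval from 0.648 to 1.71. Its log2 value of 0.07 was 0.54 under a replicate block (adjusted p = 0.995, edgeR). That block leaves out WT 5, the highest liver, and WT 6, as only WT has those numbers. Psat1, which makes phosphoserine, was at 0.525 ± 0.178, 0.584 ± 0.198 and 0.548 ± 0.315 CPM in the same order. Homo 4 held 2 Psat1 counts, 0.110 CPM, the lowest of the 14 livers. The log2 fold change of Homo over WT was 0.088, with an interval from −0.81 to 0.98, while the difference in mean log2 CPM was −0.11, so no direction can be given for it.

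Phgdh, the first enzyme of serine synthesis from glucose, was near the limit of detection and was not tested. Its 6 WT livers held 1 to 4 counts, 11 in all. The 4 Het livers held 3, 10, 5 and 0 counts and the 4 Homo livers 1, 0, 3 and 12. The zeros in Het 4 and Homo 2 allow up to 0.129 and 0.123 CPM, as limits for counting error only. Counts of 10 and 12 in Het 2 and Homo 4 stood above the rest, and the other mutant livers were at 5 counts or fewer. Psat1 and Phgdh, which act one after the other, did not share their high livers: Homo 4 had the highest Phgdh and the lowest Psat1.

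**Figure D3:**
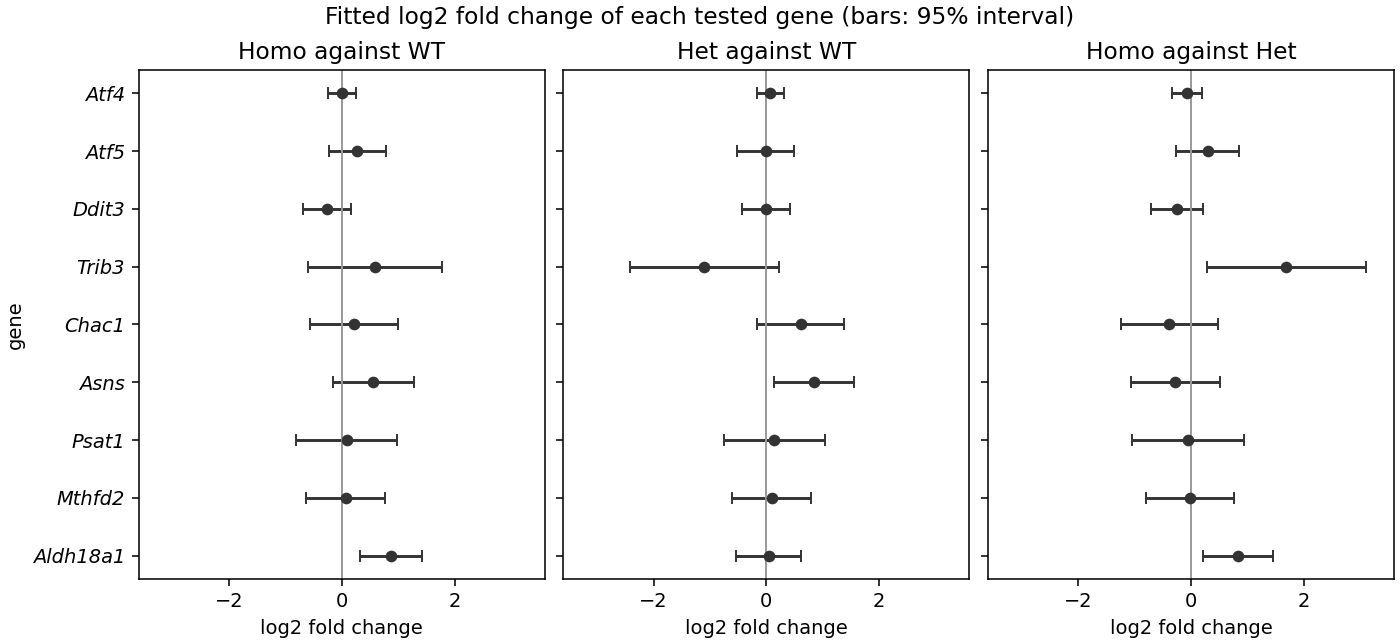
Fitted log2 fold change of the 9 tested genes in 3 genotype comparisons, with 95% intervals as bars and a line at 0. The interval excludes 0 for Aldh18a1 in Homo against WT and in Homo against Het, for Asns in Het against WT and for Trib3 in Homo against Het, before any adjustment for the 16201 genes tested.

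Levels between genes were compared as CPM per kilobase of merged exons in GENCODE M21, a build that differs from the one the authors used. In WT the order was Atf5 at 42.6 ± 14.5, Atf4 at 20.7 ± 2.86, Ddit3 at 2.05 ± 0.511, Chac1 at 1.14 ± 0.542 and Trib3 at 0.707 ± 0.398 (SD, n = 6). Mthfd2 at 0.458 ± 0.237, Asns at 0.445 ± 0.112, Aldh18a1 at 0.254 ± 0.0393, Psat1 at 0.123 ± 0.0417 and Phgdh at 0.0251 ± 0.0152 followed. From Ddit3 down to Asns the WT ranges of neighbours overlapped, and that of Aldh18a1 overlapped Mthfd2, so the order within those pairs is not settled. The range of Ddit3 lay above those of Trib3, Mthfd2, Asns and Aldh18a1. Those of Chac1, Trib3 and Asns lay above that of Aldh18a1. The WT ranges of Atf5, Atf4, Psat1 and Phgdh overlapped no other gene of the 10. With the longest transcript as the length, 5 of the 9 tested genes moved by more than their SD, among them Ddit3 to 3.62 and Mthfd2 to 0.766 per kilobase, just above Trib3 at 0.741. The transcripts of Atf5 and Atf4 were thus the abundant ones in chow-fed liver, and those of the biosynthetic enzymes were scarce.

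No shared rise and fall of the genes from liver to liver was detected. Counting error, which weakens any correlation, was a large part of the spread for the scarcer genes. In WT it would give Psat1 a coefficient of variation of 24.9%, where 33.8% was seen, and Aldh18a1 17.96%, where 15.5% was seen. Over the 36 pairs of tested genes, Pearson's r of log2 CPM across 14 livers was positive in 16 and negative in 20, with a median of −0.03 and a range from −0.43 to 0.62. No pair passed after Benjamini-Hochberg adjustment over the 36 (smallest adjusted permutation p = 0.636 for r and 0.870 for Spearman's rho), and 1 pair had an unadjusted permutation p under 0.05. That pair was Trib3 and Aldh18a1, with r = 0.62 (permutation p = 0.0177) and rho = 0.56 (permutation p = 0.0416). Without Het 2 and Het 4, the 2 livers farthest from the median of Trib3, r was 0.35, so the relation rests largely on those livers. As deviations from the genotype means r was 0.57 (permutation within genotypes, p = 0.123, adjusted p = 0.877). Asns and Chac1 had r = 0.47 (permutation p = 0.0885), which was 0.19 without the 2 livers farthest from the median of Asns.

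**Figure D4:**
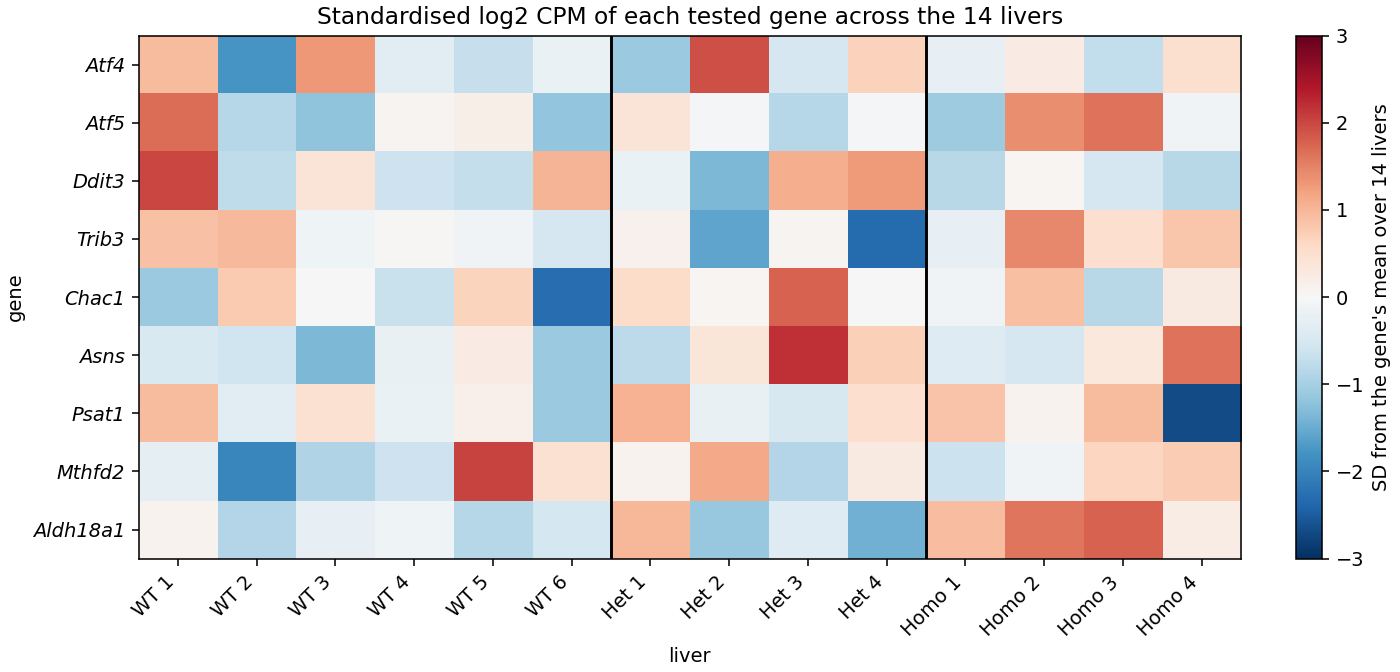
Heat map of log2 CPM for 9 genes (rows) in 14 livers (columns, black lines between genotypes), each gene scaled to SD units around its own mean over the livers. No liver is high or low for all genes: WT 1 and Homo 2 have the highest means over the 9 genes, at 0.52 and 0.57 SD, and WT 6 and WT 2 the lowest, at −0.61 and −0.60 SD.

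Averaged over the 9 standardised genes, the livers ran from −0.61 SD in WT 6 to 0.57 SD in Homo 2, and the genotypes overlapped. WT 1 was among the 3 highest livers for 5 of the 9 genes and Homo 2 for 4, whereas WT 4, WT 6 and Homo 1 were so for 0. The 5 genes outside the list whose log2 CPM followed this average most closely, of 13085 searched, were the basement membrane collagen gene Col4a2 (r = 0.83), the lysosomal peptidase gene Tpp1 (r = 0.83), Fermt2 (r = 0.82), Smagp (r = 0.81) and the lysosomal protease gene Ctsz (r = 0.81). These are the highest of many correlations over 14 libraries that share depth and composition, and are given as a description.

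The rest of the pathway was read from 5 further lists with 46 of 50 genes tested, and edgeR called 0 of the 46 in any of the 4 comparisons. At an unadjusted p under 0.05, edgeR found 4 in Homo against WT, 2 in Het against WT, 2 in Homo against Het and 4 in the trend, where the shares over all genes were 4.73%, 4.67%, 5.10% and 4.72%. So 2 of 46 is near the background. DESeq2 called 1, Cbs, in Homo against WT and in the trend, and 0 in the other comparisons, with 5, 2, 2 and 5 at an unadjusted p under 0.05. The eIF2 kinases and phosphatases, upstream of ATF4, were close to level. Of 7 genes tested, 2 were above and 5 below WT in Homo, with a median log2 fold change of −0.05 and 0 with an unadjusted p under 0.05 in edgeR. The heme-regulated kinase Eif2ak1 was at 34.3 ± 2.46 CPM in WT (SD, n = 6) and 32.6 ± 0.772 in Homo (n = 4). Ppp1r15b, which directs the phosphatase that restores eIF2, was at 95.05 ± 4.59 and 89.9 ± 5.79 CPM.

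Among stress effectors and partner factors, 10 of 11 were tested and 6 were above and 4 below WT in Homo, with a median of 0.18 and 0 with an unadjusted p under 0.05 in edgeR. Gdf15, a secreted stress hormone, was at 0.770 ± 0.524 CPM in WT (SD, n = 6), 1.49 ± 0.719 in Het (n = 4) and 1.80 ± 1.78 in Homo (n = 4). Its Homo livers ran from 0.491 to 4.39 CPM, with a median of 1.15. Its log2 fold change was 1.19 in Homo and 0.96 in Het over WT, and both intervals included 0. In the trend, 1 of the 10 tested genes of this list had an unadjusted p under 0.05 in edgeR, higher, against 4.72% of all genes. Nupr1, a small chromatin-associated stress protein, was at 0.776 ± 0.100 CPM in WT and 0.961 ± 0.244 in Homo. Fgf21, a fasting and stress hormone, had too few counts to be tested.

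Of 9 amino acid transporters, 7 were tested and 2 were above and 5 below WT in Homo, with a median of −0.07 and 0 with an unadjusted p under 0.05 in edgeR. The cationic amino acid carrier Slc7a1 was at 1.09 ± 0.207 CPM in WT (SD, n = 6), 0.787 ± 0.0842 in Het (n = 4) and 0.738 ± 0.391 in Homo (n = 4). The neutral amino acid carrier Slc1a4 was at 1.85 ± 0.451, 2.43 ± 0.174 and 2.25 ± 0.211 CPM in the same order. The cystine transporter gene Slc7a11, a well-known ATF4 target, was under the count filter.

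The list holds 12 chosen cytosolic tRNA synthetases, not the whole class, and all 12 were tested. In Homo against WT, 9 were above and 3 below, with a median log2 fold change of 0.08, and 3 had an unadjusted p under 0.05, all higher. Over all genes 50.6% were above WT and 4.73% had such a p. Gars, which charges glycine tRNA, was at 24.9 ± 1.28 CPM in WT (SD, n = 6), 28.0 ± 0.875 in Het (n = 4) and 28.3 ± 2.30 in Homo (n = 4). Its log2 fold change was 0.18 in Homo (adjusted p = 0.893, edgeR) and 0.17 in Het (adjusted p = 0.998, edgeR). All Het livers were above all WT livers in Gars, as in 0.697% of all genes. Lars, for leucine tRNA, was at 21.2 ± 2.00 CPM in WT and 24.4 ± 2.14 in Homo (log2 0.21, adjusted p = 0.998, edgeR).

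Of 11 enzymes of serine, one-carbon, proline and transsulfuration metabolism, 10 were tested and 6 were above and 4 below WT in Homo, with a median of 0.03. Cbs, the first enzyme of transsulfuration, came nearest to a call of any gene in the 5 lists. It was at 151 ± 12.9 CPM in WT (SD, n = 6), 185 ± 22.6 in Het (n = 4) and 201 ± 15.3 in Homo (n = 4). Every Homo liver, from 192 to 224 CPM, was above every WT liver, from 130 to 169 CPM, as in 0.735% of all genes. The log2 fold change of Homo over WT was 0.42 ± 0.088 SE (adjusted p = 0.104 in Homo against WT and 0.0828 in the trend, edgeR). DESeq2 placed Cbs past the threshold, with an adjusted p of 0.00295 in Homo against WT and 0.00172 in the trend. Cbs lies on chromosome 17, as does Pkd1, and whether linked sequence differs between the genotypes was not tested. Gpt2, a mitochondrial alanine aminotransferase, was at 356 ± 20.6 CPM in WT and 333 ± 54.1 in Homo.

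**Figure D5:**
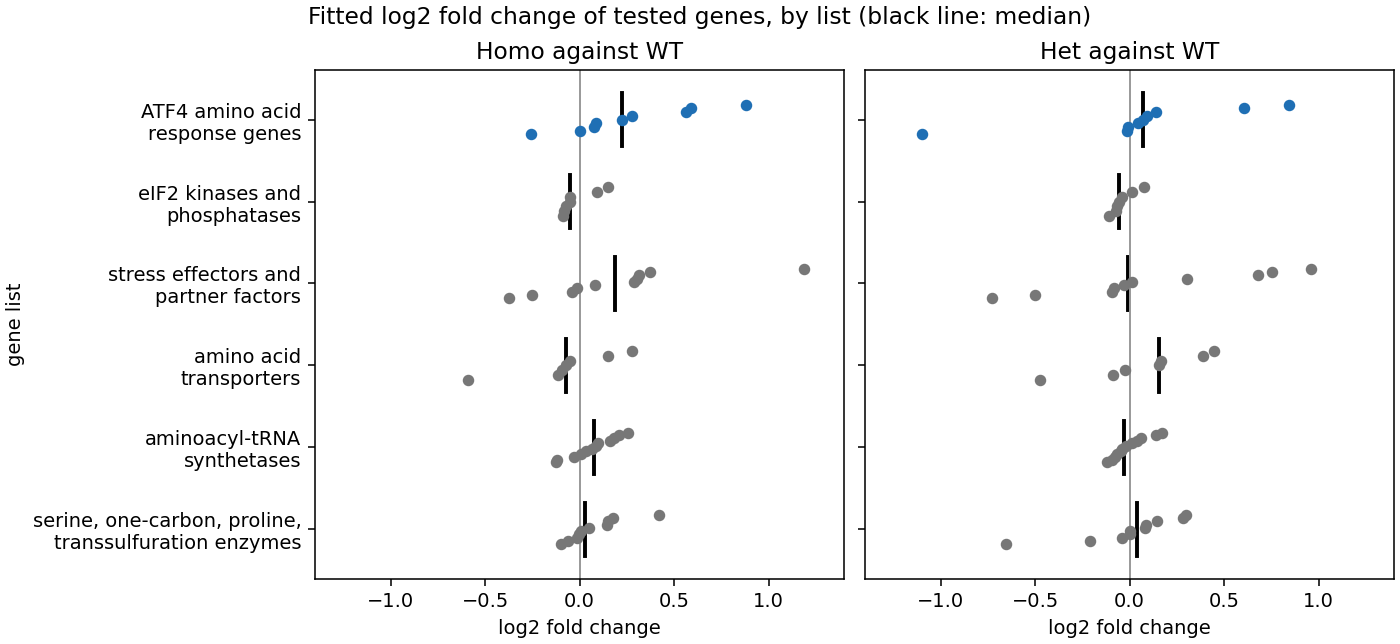
Fitted log2 fold change over WT of each tested gene, by list, in Homo (left) and Het (right), with the list's median as a black line. The 9 ATF4 amino acid response genes (blue) have medians of 0.22 and 0.07, the 5 other lists have medians from −0.07 to 0.18 in Homo, and no gene shown passed the adjusted threshold in edgeR.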

How the data were processed

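Liver total RNA was sequenced, and the deposited values are estimated counts per gene. Per the submitters' processing notes STAR, Salmon and GRCm39 were used, with no version or annotation stated there. The estimated counts were rounded. Genes passing filterByExpr (count minimum 10, total minimum 15) were scaled by TMM and tested in R 4.3.3 with edgeR 4.0.16 (quasi-likelihood, genotype only, all 14 libraries, Benjamini-Hochberg adjustment over 16201 genes). Standard errors come from the F statistic. DESeq2 1.42.0, other scalings, no filter, 2 groups alone, a replicate block and leaving out each library were alternatives. Only WT has replicate numbers 5 and 6, so the block takes WT 5 and WT 6 out of the genotype comparisons. Correlations used 100000 permutations. The script was tested on simulated data. The members and lists were chosen with earlier results of these data known. Named genes were all 10 members, with every library for those at an unadjusted p under 0.05, and, of each further list, any called gene or otherwise the pair of lowest p between Homo and WT. Remarks on Slc7a11 and Fgf21 were chosen after their values were seen. No 2 libraries held identical values. The table names 10 tRNA synthetases by older symbols, which were matched.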

Additional observations from a re-analysis of the deposited data

How the results depend on the processing

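No member was called under any alternative. The smallest adjusted p of a member under any of them was 0.272, for Aldh18a1 in Homo against WT with 1 library left out. Of 715 member log2 fold changes recomputed, 659 kept their direction and 56 reversed, 46 of these on leaving out a library, and 19 of 36 member comparisons had no reversal. Depth limits Psat1, Trib3 and Phgdh, which rest on few counts in some livers.

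The count of all genes called moved more. In Homo against WT it was 36, 61 with DESeq2 and 19 with a replicate block, and 23 to 40 on leaving out a library, with the low value without Homo 1. In Het against WT it was 9, 32 with DESeq2 and 23 with no low-count filter. In Homo against Het it was 5, 16 with DESeq2, 2 with only the groups compared and 2 with the block. The trend gave 30, 54 with DESeq2, 11 with the block and 19 to 33 on leaving out a library, with the low value without WT 1 or WT 6. The cause was not tested.

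Same-numbered libraries shared little of their deviations: 12 correlations ran from −0.09 to 0.15, not all above 0.1, so the numbers were not taken to pair the samples. As a hint from the data the other way, 6 of 12 libraries correlated best with their own number, where 3 would if numbers carried nothing. Under the replicate block the log2 fold change reversed for Atf4 (−0.035) and Psat1 (−0.10) in Homo against WT, for Aldh18a1 in Het against WT (−0.083) and for Psat1 (−0.050) and Atf4 (−0.018) in the trend. The block also moved Mthfd2 from 0.07 to 0.54 in Homo against WT, from 0.09 to 0.55 in Het against WT and from 0.04 to 0.27 in the trend, none of them called. Numbers 5 and 6 occur only in WT, so under the block WT 5 and WT 6 do not bear on these differences. WT 5 held the highest Mthfd2 of all livers, 3.13 CPM. Atf4 in Homo against WT was −0.0017 with DESeq2, −0.0013 with its size factors and −0.0041 with no filter. Scaled by library total alone, Mthfd2 and Psat1 in Homo against Het were 0.041 and 0.014. How much of the moves under the block came from leaving out WT 5 and WT 6 was not tested, nor was the cause of the others.

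Leaving out 1 library turned the sign of these log2 fold changes, given with their range. In Homo against WT these were Atf4 (−0.054 to 0.056), Mthfd2 (−0.065 to 0.39) and Psat1 (−0.13 to 0.40). In Het against WT they were Aldh18a1 (−0.31 to 0.20), Atf4 (−0.038 to 0.14), Atf5 (−0.093 to 0.17), Ddit3 (−0.12 to 0.13), Mthfd2 (−0.090 to 0.40) and Psat1 (−0.085 to 0.29). In Homo against Het they were Asns (−0.62 to 0.13), Atf4 (−0.14 to 0.041), Mthfd2 (−0.17 to 0.16) and Psat1 (−0.27 to 0.25). In the trend they were Atf4 (−0.026 to 0.032), Mthfd2 (−0.033 to 0.20), Psat1 (−0.038 to 0.19) and Trib3 (−0.027 to 0.39).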
